A study of Homo sapiens with 16 samples.

Results

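The plasminogen activator system was represented by 5 genes, PLAU, PLAT, PLAUR, SERPINE2 and SERPINB2, out of 30982 gene names on the array. The genes were chosen with earlier results of these data known, and their probes were taken by gene name. Each gene was measured by 1 probe, which gave 5 of the 41000 probes and 23 spots per array, since the probes of PLAU and PLAT were each printed on 10 spots. All 5 probes were among the 40982 probes tested. Expression was measured on 16 single-colour arrays of undifferentiated Caco-2 cells, a human colon carcinoma line that grows as an epithelium, with 4 arrays per condition. The cells were left in medium (MED-CTL), or received for 6 h the blank digestion mixture of pepsin and trypsin (PT), gliadin digested with pepsin and trypsin (PT-G), or 150 µg/ml of the synthetic gliadin peptide p31-43. According to the study, both enzymes had been heat-inactivated before the cells received them, which an assay with a trypsin substrate checked. No genotype differed between the conditions. All cultures came from the same line, were stimulated on the third day after seeding in medium with little serum, and were detached with trypsin-EDTA before RNA extraction, so that the MED-CTL cells also met trypsin briefly at harvest. The study describes 4 independent experiments that lay a few passages apart, and the arrays carried 4 run tags with 1 array of each condition in each run. The question was which of these genes were affected by gliadin, and which by the enzymes that had digested it.

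Plasminogen circulates as an inactive precursor, and the activators urokinase (PLAU) and tissue plasminogen activator (PLAT) cut it into plasmin, a protease related to trypsin that degrades fibrin and matrix proteins. Urokinase acts largely at the cell surface, where the receptor encoded by PLAUR, a protein held by a lipid anchor, binds it. Serpins stop the activators by forming covalent complexes with them. SERPINE2 encodes protease nexin, which inhibits thrombin, urokinase and trypsin-like proteases, and SERPINB2 encodes a mostly intracellular inhibitor of urokinase. In epithelia, PLAU and PLAUR are known as genes of wounding, migration and growth factor signalling.

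The deposited annotation places the PLAU probe at chr10:75347056-75347115, the PLAUR probe at chr19:48861397-48861338 on the reverse strand, and the SERPINB2 probe at chr18:59721182-59721241, on a genome build that the files do not name. The SERPINE2 probe runs from position 224667800 to position 224666102 of chromosome 2. Its ends lie 1699 bases apart, against 60 bases for each of the other 4 probes, so the probe matches sequence on both sides of an intron. Whether the probes lie in coding or untranslated exons was not determined here.

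The sequence before the transcription start is shown for the receptor and the activator that moved in these data, PLAUR and PLAU, and for SERPINB2, which was near background in the same cells. Each run holds the 250 bases before a RefSeq start on GRCh38.p14, read 5′ to 3′ on the gene's strand. Capitals mark the letters of AP-1 (TGANTCA), of the EGR family (GCGNGGGCG) and of Sp1 (GGGCGG), searched on both strands. PLAUR lies on the minus strand at chr19:43670170-43670419, PLAU on the plus strand with a first start after chr10:73910360-73910609 and a second after chr10:73910882-73911131, and SERPINB2 on the plus strand at chr18:63887455-63887704.
PLAUR: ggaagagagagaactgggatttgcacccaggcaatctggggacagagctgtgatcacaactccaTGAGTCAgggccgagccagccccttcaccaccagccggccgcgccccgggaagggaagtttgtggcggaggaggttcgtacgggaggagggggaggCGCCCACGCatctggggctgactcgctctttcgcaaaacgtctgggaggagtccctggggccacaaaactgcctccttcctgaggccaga
PLAU, first start: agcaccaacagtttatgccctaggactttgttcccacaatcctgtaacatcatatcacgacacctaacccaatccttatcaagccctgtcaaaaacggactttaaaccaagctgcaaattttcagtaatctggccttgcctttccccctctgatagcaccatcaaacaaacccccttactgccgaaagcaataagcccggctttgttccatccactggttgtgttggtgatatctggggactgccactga
PLAU, second start: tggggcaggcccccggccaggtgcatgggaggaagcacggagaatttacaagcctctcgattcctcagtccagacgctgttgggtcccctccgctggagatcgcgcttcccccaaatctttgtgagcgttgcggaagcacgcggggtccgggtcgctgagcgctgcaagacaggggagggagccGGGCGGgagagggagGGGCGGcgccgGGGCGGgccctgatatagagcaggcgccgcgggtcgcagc
SERPINB2: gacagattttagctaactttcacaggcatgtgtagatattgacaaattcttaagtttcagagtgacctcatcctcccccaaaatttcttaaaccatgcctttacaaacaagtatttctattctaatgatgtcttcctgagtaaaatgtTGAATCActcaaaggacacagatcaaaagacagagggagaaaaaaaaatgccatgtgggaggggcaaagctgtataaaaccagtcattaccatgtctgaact
The PLAUR window held 1 AP-1 match, whose first base is at -186 from the start, and 1 EGR match at -90 on the opposite strand. The window before the second PLAU start held 3 Sp1 matches, at -66, -51 and -40, and that before the first start none of the 3 motifs. SERPINB2 held 1 AP-1 match at -102. SERPINE2, whose sequence is not shown, held Sp1 matches too, at -50 before a start and at -230 and -183 before another. It held no AP-1 or EGR match. The matches did not overlap. Of 35116 promoter windows of this length, 6.57% held the AP-1 letters, 8.41% the EGR letters and 42.6% the Sp1 letters. A match of letters describes the sequence and does not show a binding site.

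The values below are the deposited log2 intensities. The median foreground of an array was between 153 and 410, over a local background of 48 to 65, and 27660 to 33947 spots were well above background. Each of 9 epithelial marker genes (among them EPCAM, named TACSTD1 on the array, CDH1, KRT8, KRT18, VIL1 and CDH17) was well above background on every array, with a mean over the list of 14.38 to 14.85 in all 4 conditions. Of the markers of other cells, PTPRC of the leukocyte list, CDH5 of the endothelial list and COL1A2 of the fibroblast list were well above background on no array. The lists they belong to were not silent, since 3 of 4 leukocyte, 2 of 3 endothelial and 4 of 6 fibroblast genes were well above background on all 16 arrays, among them CD14 (mean 9.65), PECAM1 (8.56) and THY1 (10.46). The leukocyte, endothelial and fibroblast lists had means of 7.48 to 7.82, 6.88 to 7.35 and 7.75 to 8.34, with overlapping ranges between the conditions. Within the fibroblast list COL3A1 was called lower after PT (-0.53, SE 0.18, limma, adjusted p = 0.272). In the model with a block for the run COL3A1 was called lower after PT-G and PT (-0.46 and -0.53, limma, adjusted p = 0.0202 and 0.00912), the fibroblast gene PDGFRB higher (0.51 and 0.35, limma, adjusted p = 0.00887 and 0.0484) and the epithelial gene CDX2 lower (-0.72 and -0.65, limma, adjusted p = 0.0349 and 0.0521), each against MED-CTL. VIL1 was called lower after PT in that model (-0.22, limma, adjusted p = 0.0903). COL3A1, PDGFRB and CDX2 were also called in the same directions for both digests against p31-43, where PECAM1 and LGALS4 were called higher. The part of these genes in the results below was not tested. PLAU, PLAUR and SERPINE2 were well above background on all 16 arrays and PLAT on 15. SERPINB2 was well above background on 2 arrays. Different probes hybridise differently, so levels were compared between conditions and never between genes. The RNA of a culture does not tell more cells that express a gene from more RNA per cell.

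PLAUR was higher after both digests than in the medium array of the same run in all 4 runs, on average by 0.72 on the log2 scale after PT-G and by 0.84 after PT. PLAU moved the same way by less, 0.28 after PT-G and 0.20 after PT. PLAT, SERPINE2 and SERPINB2 were not called in any comparison. After p31-43 no member was called, and no member was called between PT-G and PT. A probe was called at a nominal p under 0.01, the threshold of the study, in a limma model of the 4 conditions. In that model 0 of the 5 probes were called for PT-G against MED-CTL, where 3.43% of all probes were, and 0 for PT against MED-CTL, where 3.64% were. Of the 5, none reached an unadjusted p under 0.05 after PT and 1, PLAU, did so after PT-G. With the run as a block in the model, 2 of the 5 were called for PT-G, PLAUR and PLAU, against 9.11% of all probes, and 1 for PT, PLAUR, against 10.2%. For p31-43 against MED-CTL 0 of 5 were called in both models, with 0.403% and 1.38% of all probes called, and the smallest unadjusted p without the block was that of PLAU, 0.391. For PT-G against PT it was 0 of 5 in both models, with 0.0903% and 0.322% of all probes called, and 0 at an unadjusted p under 0.05.

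**Figure D1:**
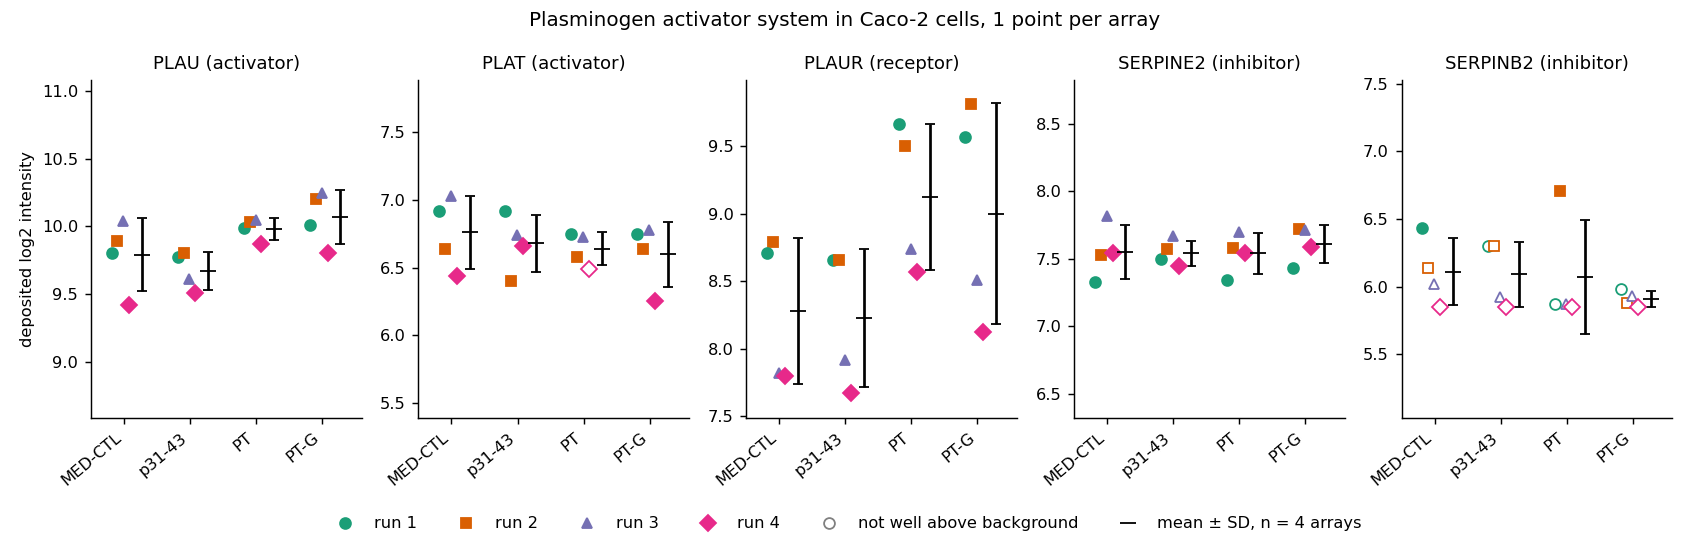
Deposited log2 intensity (y axis) of the 5 genes in the 4 conditions (x axis), 1 point per array with colour and shape for the run, open where the probe was not well above background, and bars for the mean ± SD over 4 arrays. Each panel spans the same number of log2 units. The PLAUR points of runs 1 and 2 lie above those of runs 3 and 4 in every condition, and within each run the PT and PT-G points lie above MED-CTL and p31-43.

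Urokinase, the activator encoded by PLAU, had the following levels. The 4 MED-CTL arrays measured 9.80, 9.89, 10.04 and 9.42 in runs 1 to 4. After p31-43 the values were 9.77, 9.80, 9.61 and 9.51. After PT they were 9.99, 10.03, 10.05 and 9.87. After PT-G they were 10.01, 10.20, 10.25 and 9.80. In each run both digests lay above medium and above p31-43, while over all runs the digests overlapped the medium arrays, the highest of which was at 10.04. The order of the means was PT-G (10.07 ± 0.20, SD, n = 4), PT (9.98 ± 0.08), MED-CTL (9.79 ± 0.27) and p31-43 (9.67 ± 0.14). No neighbours in this order differed beyond their spread.

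PLAU was higher after PT-G than in MED-CTL by 0.28 (SE 0.13, 95% confidence interval 0.00 to 0.56, fold change 1.21), which was not called without a block (limma, adjusted p = 0.622) and was called with the run as a block (SE 0.08, limma, adjusted p = 0.0707). It was called in 4 of 30 alternatives, with adjusted p-values between 0.0586 and 1.00 over all of them. The differences within runs 1 to 4 were 0.22, 0.31, 0.20 and 0.39. For PT the difference was 0.20 (SE 0.13, interval -0.08 to 0.47), with 0.19, 0.13, 0.01 and 0.45 in the runs, and it was not called in either model (run as a block, limma, adjusted p = 0.189). The difference after PT rested mostly on run 4, and in run 3 PT and medium were equal within 0.01. Without MED-CTL replicate 4, the lowest medium array at 9.42, the difference was 0.155 for PT-G and 0.0722 for PT. Both were the smallest over the fits without 1 array.

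The contrast of the digests with the peptide was larger than that with the medium, and the p31-43 mean was the lowest of the 4. PT-G lay 0.39 above p31-43 (SE 0.13, interval 0.12 to 0.67, fold change 1.31, limma, adjusted p = 0.249). This was the only call among the members without a block, 1 of 5 against 3.70% of all probes. It was lost on leaving out any of 12 of the 16 arrays, with p between 0.00225 and 0.0307 over the 16. It held without MED-CTL replicate 3, MED-CTL replicate 4, p31-43 replicate 2 or PT-G replicate 4. Left out one at a time, the arrays whose absence ended it were MED-CTL replicates 1 and 2, p31-43 replicates 1, 3 and 4, PT replicates 1 to 4, and PT-G replicates 1 to 3. With the run as a block 2 of 5 were called in this comparison, PLAU (SE 0.08, limma, adjusted p = 0.0138) and PLAUR, against 9.60% of all probes. Every PT array lay above every p31-43 array for PLAU, which held for 2.55% of all probes. The difference of 0.31 (SE 0.13, interval 0.03 to 0.59) between PT and p31-43 was not called without a block, where 0 of 5 were called against 3.14% of all probes, and was called with the run as a block (SE 0.08, limma, adjusted p = 0.05), where 2 of 5 were, PLAU and PLAUR, against 8.40%.

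The 10 spots of the PLAU probe gave a check within the arrays. On an array they had an SD between 0.104 and 0.266. Averaged over 4 arrays, PT-G minus MED-CTL was between 0.20 and 0.36 for the 10 spots, PT minus MED-CTL between 0.15 and 0.24, and p31-43 minus MED-CTL between -0.18 and -0.02. All 10 spots thus had the same sign in each of these comparisons. They share the RNA of each array, so they measure the error of the array and not that of the cultures.

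**Figure D2:**
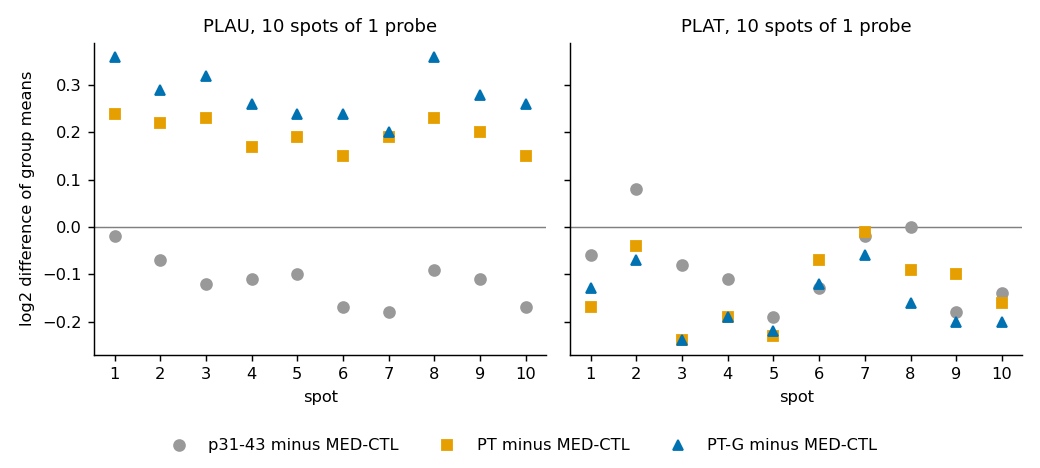
Log2 difference of the group mean from that of MED-CTL (y axis) for each of the 10 spots (x axis) of the PLAU and the PLAT probe, with a symbol for each treatment. The PLAU spots lie between 0.15 and 0.36 for both digests and below 0 for p31-43. The PLAT spots lie between -0.24 and -0.01 for both digests.

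Tissue plasminogen activator, encoded by PLAT on chromosome 8, was dim. In runs 1 to 4 the MED-CTL arrays measured 6.92, 6.64, 7.03 and 6.44. The range over all 16 arrays was 6.25 (PT-G replicate 4) to 7.03 (MED-CTL replicate 3), and 1 array, PT replicate 4, was not well above background. The ranges of the 4 conditions overlapped. Means were 6.76 ± 0.27 (SD, n = 4) for MED-CTL, 6.68 ± 0.21 for p31-43, 6.64 ± 0.12 for PT and 6.60 ± 0.24 for PT-G, with no neighbours apart beyond their spread. PT-G minus MED-CTL was -0.15 (SE 0.15, interval -0.48 to 0.17, limma, adjusted p = 1.00), and no within-run difference was above 0. PT minus MED-CTL was -0.12 (SE 0.15, interval -0.45 to 0.20). The intervals leave room for a decrease of the size by which PLAU increased. None of 30 alternatives called PLAT in any of the 6 comparisons. Its 10 spots were on average below MED-CTL for both digests, by 0.06 to 0.24 for PT-G, with an SD between spots of 0.093 to 0.216 on an array.

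The urokinase receptor, encoded by PLAUR, showed the largest differences between conditions of the 5 genes, and also the largest between runs. The MED-CTL arrays measured 8.71, 8.79, 7.82 and 7.80 in runs 1 to 4. After p31-43 the values were 8.66, 8.66, 7.92 and 7.67. After PT they were 9.66, 9.5, 8.74 and 8.57. After PT-G they were 9.57, 9.81, 8.51 and 8.12. In each run the arrays formed a lower pair, MED-CTL and p31-43, and an upper pair, PT and PT-G. Across runs the groups overlapped, since the digests in runs 3 and 4 were below the highest medium array of runs 1 and 2, at 8.79. The unnormalised foreground of this spot was between 139 and 442 on the MED-CTL arrays, 257 and 426 on p31-43, 292 and 856 on PT, and 292 and 935 on PT-G. The order of the means was PT (9.12 ± 0.54, SD, n = 4), PT-G (9.0 ± 0.82), MED-CTL (8.28 ± 0.54) and p31-43 (8.23 ± 0.51). PT and PT-G did not differ beyond their spread, nor did MED-CTL and p31-43.

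PT minus MED-CTL was 0.84 (SE 0.41, interval -0.03 to 1.71, fold change 1.79) and was not called without a block (limma, adjusted p = 0.597). The differences within runs were 0.95, 0.71, 0.92 and 0.77, with an SD of 0.12 between runs. With the run as a block the SE was 0.11 and PLAUR rose with PT (limma, adjusted p = 0.00149). PT-G minus MED-CTL was 0.72 (SE 0.41, interval -0.15 to 1.59, fold change 1.65, limma, adjusted p = 0.795), with 0.86, 1.02, 0.69 and 0.32 in the runs. The smallest of these was in run 4. With the run as a block PLAUR rose with PT-G as well (SE 0.11, limma, adjusted p = 0.00315). Over 30 alternatives the PT difference stayed between 0.656 and 1.02 with adjusted p-values from 0.00149 to 0.844, and the PT-G difference between 0.453 and 1.02 with adjusted p-values from 0.00315 to 1.00. The 5 fits that called PLAUR in both comparisons were those with a block for the run, the replicate number, the slide, the scan day or the pair of runs. The scan day and the pair of runs were chosen after seeing the data.

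After the peptide PLAUR did not pass the test in either model. p31-43 minus MED-CTL was -0.05 (SE with the run as a block 0.11), with -0.05, -0.13, 0.10 and -0.13 in the runs. Against p31-43, PT was higher by 0.89 and PT-G by 0.78 (limma with the run as a block, adjusted p = 0.00109 and 0.00193). Without the block neither was called (limma, adjusted p = 0.675 and 0.688). These comparisons use the same PT and PT-G arrays as those with MED-CTL and are no separate evidence on the digests. PT-G minus PT was -0.11 (SE 0.11 with the run as a block, limma, adjusted p = 0.900), and the 4 runs gave -0.09, 0.31, -0.24 and -0.44. The interval of this difference was -0.36 to 0.13 with the block and -0.99 to 0.76 without it. A p that misses the threshold does not show that the digests acted alike on PLAUR.

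**Figure D3:**
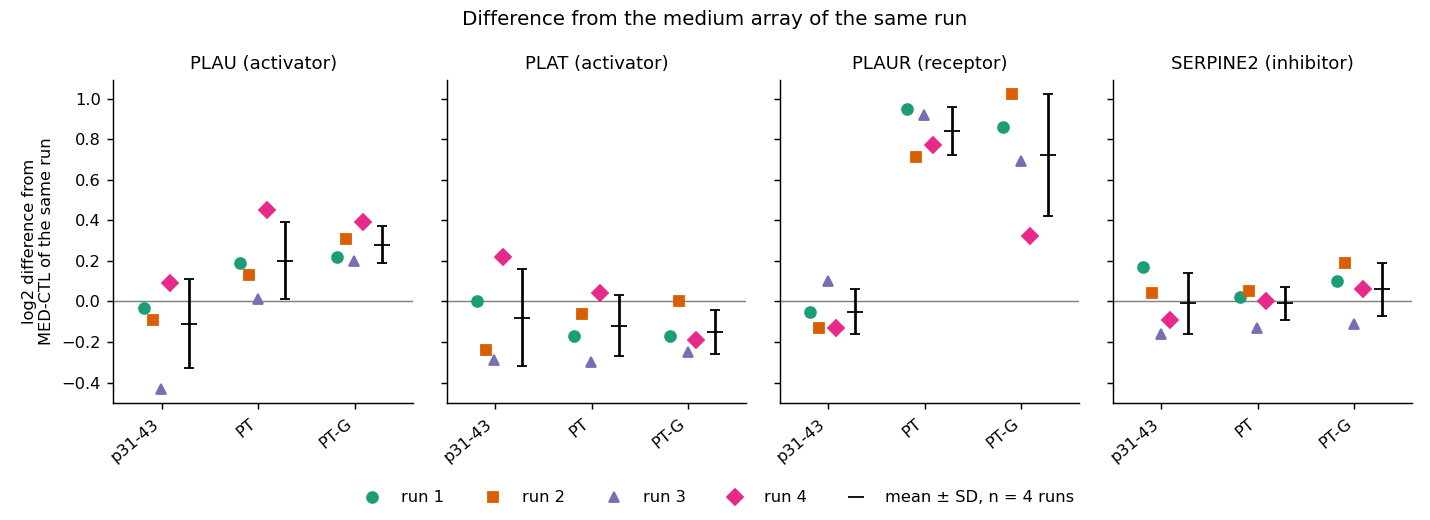
Log2 difference from the MED-CTL array of the same run (y axis) for 3 treatments (x axis), 1 point per run, with the mean ± SD over 4 runs. SERPINB2 is left out because it was near background. PLAUR lies between 0.71 and 0.95 for PT and between 0.32 and 1.02 for PT-G, PLAU lies above 0 in all 4 runs for both digests, and p31-43 scatters around 0 for PLAUR.

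The split between runs concerned PLAUR more than the other members. With the condition in the model, its mean was 9.17 in runs 1 and 2 and 8.15 in runs 3 and 4, a difference of -1.03 (SE 0.08, limma, adjusted p = 6.75e-06). Of all probes, 24.2% were called at a nominal p under 0.01 in this contrast. The division into these pairs of runs was chosen after seeing the data, which limits every p-value given here for it. SERPINB2 was called as well, at -0.31 (SE 0.10, limma, adjusted p = 0.0407), on values that were mostly not well above background. PLAU (-0.12), PLAT (-0.06) and SERPINE2 (0.13) were not called. Runs 1 and 2 were scanned on 1 day and runs 3 and 4 on others, so passage, hybridisation and scan cannot be told apart. For PLAUR the response to PT was nearly the same size on both sides of this split (difference of the responses -0.01, SE 0.20, limma, adjusted p = 0.998). The response to PT-G was larger by 0.44 in runs 1 and 2 (SE 0.20, limma, adjusted p = 1.00), which was not called.

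Protease nexin, encoded by SERPINE2, varied little. The MED-CTL arrays measured 7.33, 7.53, 7.82 and 7.54 in runs 1 to 4, and all 16 arrays lay between 7.33 and 7.82. The means were 7.61 ± 0.14 (SD, n = 4) for PT-G, 7.55 ± 0.20 for MED-CTL, 7.54 ± 0.15 for PT and 7.54 ± 0.09 for p31-43, all within their spread. PT-G minus MED-CTL was 0.06 (SE 0.11, interval -0.17 to 0.29, limma, adjusted p = 1.00) and PT minus MED-CTL -0.01 (interval -0.24 to 0.22). Changes of the size seen for PLAUR lay outside these intervals, while that of PLAU after PT-G, 0.28, lay within the first. No alternative called SERPINE2.

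SERPINB2 gave no level that could be compared. The probe was well above background on MED-CTL replicate 2 (6.43) and PT replicate 2 (6.71) and on no other array. The PT arrays measured 5.87, 6.71, 5.87 and 5.85 in runs 1 to 4, and the 4 PT-G arrays lay between 5.85 and 5.98. In run 4 all conditions measured 5.85. The lowest log2 values that were well above background lay between 5.89 and 6.13 on the 16 arrays. None of the 29 alternatives in which it was tested called SERPINB2.

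**Figure D4:**
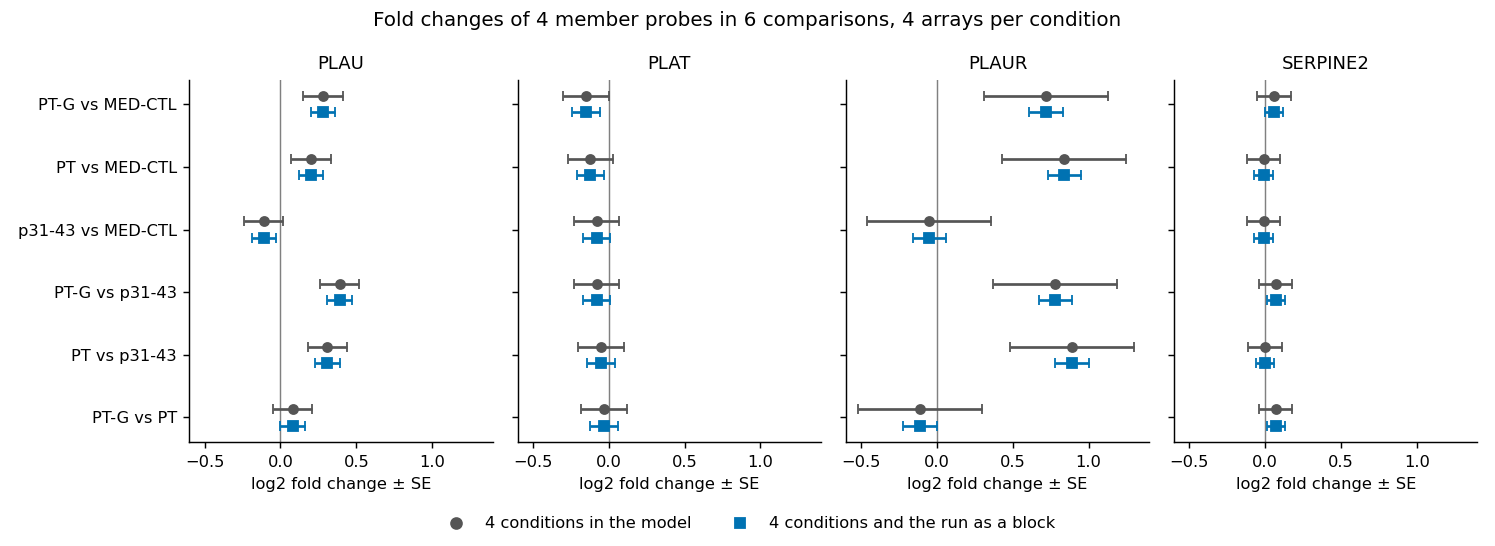
Log2 fold change ± SE (x axis) of 4 member probes in 6 comparisons (y axis), with circles for the model of the 4 conditions and squares for the model that also holds the run as a block. The estimates coincide because each run holds every condition. The SE of PLAUR falls from 0.41 to 0.11 with the block, and its 4 contrasts of a digest with MED-CTL or p31-43 stand clear of 0.

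The other genes of the system were taken from 6 lists chosen with earlier results of these data known. The list of zymogen activation held PLG, F12, KLKB1, ST14, HPN and CTSB on 12 probes, and 0 were called in any comparison without a block. The brightest of the 4 probes of PLG, the gene of plasminogen itself, was dim, with a mean of 6.6, and well above background on 15 of 16 arrays. Another PLG probe was well above background on 2 PT-G arrays only, and the remaining PLG probes on no array. The brightest probes of the membrane protease matriptase (ST14) and of cathepsin B (CTSB) were well above background on all 16. With the run as a block 1 of the 12 was called higher and 1 lower after PT-G, against 9.11% of all probes. Both were named after their values were seen. KLKB1, plasma prekallikrein, was well above background on 2 of 4 PT-G arrays and on no other array. Its means were 6.49 after PT-G and 6.04 in MED-CTL, a difference of 0.46 (interval 0.08 to 0.83, limma, adjusted p = 0.429, and 0.0989 with the run as a block). Most of its values were not well above background, which limits what the size of this difference can show. The lower probe was 1 of 3 for CTSB and not the brightest, with means of 11.31 after PT-G and 11.54 in MED-CTL (-0.22, limma with the run as a block, adjusted p = 0.0641). The median log2 fold change of the list was 0.13 after PT-G and 0.07 after PT, beside -0.01 for all probes in both.

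Among 7 further inhibitors on 8 probes, 1 was called higher after PT, TFPI2, an inhibitor of plasmin and of the tissue factor pathway. It was called against MED-CTL and against p31-43, where 3.64% and 3.14% of all probes were called. The PT arrays measured 6.77, 6.34, 5.91 and 6.48 in runs 1 to 4, of which those of runs 1 and 2 were well above background. The 4 MED-CTL arrays lay between 5.84 and 5.99 and the 4 p31-43 arrays between 5.78 and 6.00, none of them well above background. The TFPI2 means were 6.37 after PT and 5.92 in MED-CTL, a difference of 0.45 (interval 0.14 to 0.77, limma, adjusted p = 0.258, and 0.0383 with the run as a block). Against p31-43 the difference was 0.49 (interval 0.17 to 0.81, limma, adjusted p = 0.230, and 0.0322 with the run as a block). Most TFPI2 values were not well above background, which limits what the size of these differences can show. After PT-G the mean was 6.17, which was not called. The median of the inhibitor list was 0.15 after PT-G and 0.17 after PT, beside -0.01 for all probes.

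The surface receptors and partners of the system were not called without a block. The list of plasminogen receptors and clearance receptors held 10 genes on 17 probes, of which 9 genes were well above background on all 16 arrays, among them ANXA2 (16.95), S100A10 (17.09) and ENO1 (15.98) as means of the brightest probe, and MRC2 on 15. Its median fold change was -0.04 after PT-G and 0.01 after PT on the log2 scale. With the run as a block, 1 of the 17 probes was called lower after PT-G and after PT, against 9.11% and 10.2% of all probes. It was that of VLDLR, an endocytic receptor that clears urokinase complexes (-0.26 and -0.28, limma, adjusted p = 0.0913 and 0.0623), named after its values were seen. The same probe was called lower for PT against p31-43 (-0.26, limma with the run as a block, adjusted p = 0.110), where 8.40% of all probes were called. The 7 partners of the urokinase receptor, vitronectin and integrins, lay on 13 probes with medians of -0.04 and -0.03. Of these genes 6 were well above background on all 16 arrays, and ITGB3 on 1. None was called against MED-CTL or p31-43 in either model. Between PT-G and PT 1 of the 13 probes was called higher with the run as a block, against 0.322% of all probes. It was a probe of ITGAV, an integrin subunit (0.40, limma, adjusted p = 0.900), named after its values were seen.

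Of 7 matrix metalloproteases on 8 probes, 1 was called lower after p31-43, MMP9, a gelatinase. Its p31-43 arrays measured 7.58, 7.67, 7.63 and 7.60 in runs 1 to 4. The MED-CTL arrays lay at 7.80 to 7.95, the PT-G arrays at 7.73 to 7.79 and the PT arrays at 7.61 to 7.94. The difference of p31-43 from MED-CTL was -0.27 (SE 0.07, limma, adjusted p = 1.00), with 0.403% of all probes called in this comparison. PT-G and PT were lower than MED-CTL as well, by -0.12 and -0.17 (SE 0.07 each), which was not called. MMP1, the interstitial collagenase, was well above background on all 16 arrays with a mean of 15.33. It was called higher after PT-G and PT than after p31-43 when the run was a block (0.37 and 0.34, limma, adjusted p = 0.016 and 0.0286), and it was named after its values were seen. In these comparisons 1 of the 8 probes was called, against 9.60% and 8.40% of all probes. MMP3 and MMP13 were well above background on no array. The 12 other clade B serpins lay on 19 probes. None was called in any of the 6 comparisons in either model, and 7 of the 12 genes were well above background on no array.

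Over the 16 arrays the genes most like each member were sought among the brightest probes of 13057 named genes that were well above background throughout. For PLAUR they were ZNF668, MLX and STX10, with Pearson's r of 0.979, 0.974 and 0.968. For PLAU they were NFATC1, LARP6 and NOV (0.949, 0.937 and 0.933). PLAT was most like ATF6 (0.930), SERPINE2 most like NQO1 (0.894) and SERPINB2 most like ATAD4 (0.805). SERPINB2 was well above background on only 2 arrays, so its correlation was mostly of values near background. These correlations hold the difference between runs. After subtraction of the mean of each run, a choice made after seeing the data, the nearest to PLAUR were ICAM1, HSPA6 and ZNF668 (0.974, 0.972 and 0.966), and the nearest to PLAU were BTG3, NP and SNAPC1 (0.977, 0.964 and 0.963). PLAU and PLAUR had r of 0.648 with each other over the 16 arrays and 0.768 after the subtraction. The arrays share their conditions and their normalization, and the correlations describe these 16 arrays only.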

How the data were processed

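RNA of 16 Caco-2 cultures was measured on Agilent arrays. The authors' image analysis gave spot intensity on a linear scale with marks for outliers and for spots well above background. The authors also deposited log2 values, which equal the median foreground intensity after quantile normalization over all 45015 spots within 5e-09, without background correction. These log2 values were used. Outlier-marked spots (1774) were left out, spots of a probe averaged, and the 40982 of 41000 probes with at least 3 arrays per group tested with limma 3.58.1 (R 4.3.3) in 1 model of the 4 conditions, 2-sided, called at a nominal p under 0.01, with Benjamini-Hochberg adjustment over all probes of a comparison. The number of arrays limits the precision. The model was tested on simulated data. These had independent noise on each array and no difference between runs, so they cannot show how the model without a block performs on arrays that differ by run.

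The members and lists were chosen with earlier results of these data known. Named genes are the 5 members, list genes with a nominal p under 0.01, and the 3 nearest by correlation. Alternatives were other normalizations and background corrections (normexp with offset 50), a filter on dim probes, marked spots kept, blocks for run, replicate, slide, scan day or pair of runs, only 2 groups, array weights (statmod 1.5.0), a trend with intensity, and fits without 1 array. Deviations of arrays with the same replicate number correlated above 0.1 in every pair for 4 of the 6 comparisons, but fell to -0.0148 for PT with MED-CTL and 0.0399 for PT-G with PT. Pairs of the same run gave these same values in run 3. There PT replicate 3 lay on slide 4 and the other arrays on slide 3, with another scan day. In run 4, p31-43 replicate 4 lay on slide 4 and the other arrays on slide 5, again with another scan day. Some differences within runs 3 and 4 thus cross slides and scan days. The run tags come from the deposited files and place MED-CTL replicates 1 and 2 in runs 2 and 1.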

Additional observations from a re-analysis of the deposited data

Results flagged for a closer look

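The SERPINB2 value of PT replicate 2, 6.71, stood far above the other 3 PT arrays at 5.85 to 5.87. The gap to the nearest took 0.971 of the range of the group, above Dixon's 95% critical value for 4 samples. It was 1 of 20 groups tested (5 genes in 4 conditions), and about 1 in 20 groups is singled out in this way by chance. The spot was well above background on this array, with a foreground of 110 over a local background of 50, against 55 to 80.5 on the other PT arrays.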

How the results depend on the processing

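Of 894 fold changes computed under the alternatives for 30 pairs of a member and a comparison, 780 kept their direction and their side of the threshold, 29 passed it only under the alternative, 18 no longer passed it and 67 changed sign. The 47 calls gained or lost were all of PLAU or PLAUR, and no sign change was of a called value. With the replicate block, the run as a block or the slide as a block, 2 probes were called for PT-G against MED-CTL (main 0), 1 for PT against MED-CTL (main 0), 2 for PT-G against p31-43 (main 1) and 2 for PT against p31-43 (main 0). The pair of runs as a block called 1, 1, 2 and 1 in the same comparisons, the scan day as a block 1 each for PT-G and PT against MED-CTL and for PT against p31-43, array weights 1 for PT-G against MED-CTL and 2 for PT-G against p31-43, and a fit of only the 2 groups 1 for PT against p31-43. The PLAU call between PT-G and p31-43 was lost, leaving 0, with the background-subtracted signal at the 75th percentile, median scaling, the filter on dim probes, an intensity trend and only the 2 groups, and leaving out 1 array gave 0 to 1. The scan day as a block ended it too (limma, adjusted p = 0.217 for PLAU) and called PLAUR in its place, so that the count stayed 1. The cause was not tested.

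Signs turned in small differences. With array weights PT-G minus PT became 0.209 for PLAUR and 0.0257 for PLAT, SERPINE2 after PT and p31-43 against MED-CTL 0.0642 and 0.0662, and SERPINB2 after PT 0.0175 and 0.0619 against MED-CTL and p31-43. With the background-subtracted signal PT minus p31-43 became 0.0272 for PLAT, 0.0322 for SERPINE2 and 0.302 for SERPINB2, and PT minus MED-CTL 0.0255 for SERPINE2 and 0.0646 for SERPINB2. Median scaling gave 0.0357 for PLAT from both digests against p31-43, 0.0198 for SERPINE2 from PT against p31-43, and 0.00419 and 0.103 for SERPINB2 from PT-G and PT against p31-43. Normexp gave SERPINE2 0.0159, 0.0132 and 0.00271 for PT and p31-43 against MED-CTL and PT against p31-43. The scan day as a block gave 0.000419 and 0.00484 for SERPINE2 after PT and p31-43, and 0.012 for SERPINB2 after p31-43. The slide as a block gave PLAT 0.0111 and 0.0756 for PT-G and PT against p31-43, SERPINE2 0.0243 and 0.0433 for PT against MED-CTL and p31-43, and SERPINB2 0.00667 and 0.00841 for the same.

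Leaving out 1 array, PLAUR ranged from -0.384 to 0.179 for PT-G minus PT and from -0.215 to 0.13 for p31-43 minus MED-CTL. PLAT ranged from -0.138 to 0.0329 and -0.169 to 0.0418 for PT and PT-G minus p31-43, -0.0889 to 0.0871 for PT-G minus PT, and -0.185 to 0.0144 for p31-43 minus MED-CTL. SERPINE2 ranged from -0.0165 to 0.149, -0.0892 to 0.0767 and -0.0847 to 0.0811 for PT-G, PT and p31-43 minus MED-CTL, and from -0.057 to 0.0609 for PT minus p31-43. SERPINB2 ranged from -0.246 to 0.0726 and -0.103 to 0.0916 for PT and p31-43 minus MED-CTL, -0.231 to 0.0568 for PT minus p31-43, and -0.242 to 0.0459 for PT-G minus PT. Over all probes the count of calls for PT-G against MED-CTL ran from 886 (only the 2 groups) to 4996 (slide as a block) beside 1404, for PT from 1074 (without MED-CTL replicate 2) to 4332 beside 1491, and for p31-43 from 80 to 1526 beside 165. Dim signal limits SERPINB2, TFPI2 and PLAT, and 1 spot per array limits PLAUR and SERPINE2.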
